A study of Homo sapiens with 4 samples.

Results

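The genes described here encode the machinery that copies the genome. They are 58 genes chosen by symbol, on knowledge of their function, out of 63677 genes in the deposited table: the origin recognition complex, the licensing factors, the MCM helicase, its activators, the replicative polymerases, the sliding clamp with its loader, and the proteins that finish, guard and repackage the new strands. All 58 symbols were found, and all 58 passed the filter for low counts. They were sorted by complex into 15 groups. The list used no measured value, but it was chosen with earlier results of these data known. RFC2 has 2 rows in the table, and the row with the higher mean was kept.

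The samples were MDA-MB-231 cells, an established human line from a triple-negative breast cancer (TNBC). Transfection was with control siRNA in the siCt group and with pooled siRNAs that target AXL, a TAM receptor tyrosine kinase, in the siAXL group. Each group had 2 libraries of total RNA, and the cell line and the transfection were common to all 4. The labels do not say whether the 2 libraries of a group came from separate cultures, so the p-values below measure the spread between these libraries, which may be technical.

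A cell that divides must copy each stretch of DNA only once. In G1 phase the origin recognition complex (ORC), CDC6 and CDT1 load the ring of MCM2 to MCM7 onto origins, and geminin (GMNN) later blocks CDT1 so that no origin is loaded again. In S phase the kinase CDC7 with its activator DBF4, helped by MCM10, turns the loaded ring into the active helicase by adding CDC45 and GINS, and the polymerases follow. Many of these genes are known to be transcribed towards S phase under the control of E2F factors, and their transcript levels are widely used as a sign of proliferation.

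AXL, the gene targeted by the siRNA pool, stood at 29189 and 30617 normalized counts in siCt 1 and siCt 2 and at 8658 and 7141 in siAXL 1 and siAXL 2, a log2 fold change of -1.93 (standard error, SE, 0.0918, adjusted p = 0.000585 by limma). A normalized count is the number of reads on a gene divided by the size factor of its library. Totals ran from 39574387 to 44585773 reads per library. Mitochondrial transcripts took 2.11% to 3.78% of the reads and were higher in the first library of each group than in the second. The mesenchymal markers VIM, CD44 and CAV1 had at least 17121 normalized counts in each library, and ESR1 and PGR at most 3. CDH1, the epithelial cadherin, had 90 and 94 in siCt and 37 and 23 in siAXL. ERBB2, which is not amplified in triple-negative tumors, was well detected at 2949 to 3680. Of the markers of other cell types, PECAM1 was at 0 in all libraries, and CD3E, PTPRC and ALB reached at most 1, 17 and 11. The members had at least 414 reads in each library.

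The promoters of 6 members are printed first, to show windows with and without the E2F-type words that were searched. They are windows from 250 bases before to 50 bases after the start of the gene, taken from RefSeq on GRCh38.p14 and written 5′ to 3′ on the strand of the gene. Capitals mark the words TTTCCCGC, TTTGGCGC, TTTGCCGC and TTTCGCGC, searched on both strands, and words of the 2 strands can overlap. MCM10 (chr10:13161308-13161607, plus strand) and TIPIN (chr15:66356636-66356935, minus strand, 1 of its 2 windows) are shown for their large falls in siAXL. CDC6 (chr17:40287629-40287928, plus strand) and MCM3 (chr6:52284693-52284992, minus strand) had the smallest adjusted p-values of their groups. MCM6 (chr2:135876394-135876693, minus strand) carries the word and RFC1 (chr4:39366313-39366612, minus strand) carries none of the exact words, and neither passed the test.
MCM10: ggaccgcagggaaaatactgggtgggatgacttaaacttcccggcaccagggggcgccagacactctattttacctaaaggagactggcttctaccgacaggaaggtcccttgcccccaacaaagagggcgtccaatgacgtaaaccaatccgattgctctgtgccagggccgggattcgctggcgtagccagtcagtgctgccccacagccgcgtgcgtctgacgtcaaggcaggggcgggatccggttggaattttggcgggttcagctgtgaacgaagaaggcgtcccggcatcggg
TIPIN: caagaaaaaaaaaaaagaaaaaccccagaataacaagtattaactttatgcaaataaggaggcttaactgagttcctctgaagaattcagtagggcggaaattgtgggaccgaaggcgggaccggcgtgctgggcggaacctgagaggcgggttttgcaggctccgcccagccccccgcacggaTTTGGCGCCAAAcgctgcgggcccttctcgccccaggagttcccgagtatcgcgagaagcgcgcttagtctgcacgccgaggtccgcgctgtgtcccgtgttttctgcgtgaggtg
CDC6: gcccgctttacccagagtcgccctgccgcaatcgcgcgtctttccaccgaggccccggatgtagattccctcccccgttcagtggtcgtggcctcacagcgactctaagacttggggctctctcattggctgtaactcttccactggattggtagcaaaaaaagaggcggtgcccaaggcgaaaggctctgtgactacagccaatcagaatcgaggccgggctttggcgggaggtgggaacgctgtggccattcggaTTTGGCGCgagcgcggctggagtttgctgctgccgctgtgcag
MCM3: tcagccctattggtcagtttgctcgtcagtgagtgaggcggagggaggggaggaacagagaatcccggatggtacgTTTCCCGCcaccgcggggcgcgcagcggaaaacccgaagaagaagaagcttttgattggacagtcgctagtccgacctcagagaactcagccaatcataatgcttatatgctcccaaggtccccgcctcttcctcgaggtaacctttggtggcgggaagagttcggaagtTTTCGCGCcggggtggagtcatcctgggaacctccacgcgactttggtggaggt
MCM6: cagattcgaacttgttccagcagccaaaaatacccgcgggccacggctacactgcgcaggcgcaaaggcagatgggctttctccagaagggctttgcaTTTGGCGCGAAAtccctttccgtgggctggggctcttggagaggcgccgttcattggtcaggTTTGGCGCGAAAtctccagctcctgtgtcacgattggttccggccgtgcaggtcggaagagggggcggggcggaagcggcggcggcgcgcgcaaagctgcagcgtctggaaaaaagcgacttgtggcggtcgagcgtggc
RFC1: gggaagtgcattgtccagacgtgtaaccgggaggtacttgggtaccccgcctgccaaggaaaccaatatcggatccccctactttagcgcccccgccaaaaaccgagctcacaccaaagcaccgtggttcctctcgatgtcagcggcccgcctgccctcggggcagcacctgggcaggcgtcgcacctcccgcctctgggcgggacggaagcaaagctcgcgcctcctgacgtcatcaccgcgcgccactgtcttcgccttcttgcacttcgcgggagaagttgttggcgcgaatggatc

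Most of the replication genes were lower in siAXL, each by a moderate amount. Of the 58 members, 55 had a log2 fold change below 0, against 50.3% of all genes tested, and 40 were called lower at an adjusted p under 0.05 in limma, against 7.91% of all 16064 genes tested. None was called higher, against 10.8% of all genes tested. No member was higher at an unadjusted p under 0.05. In edgeR and DESeq2 0 members were called higher as well, against 11.5% of the genes that each of them tested. They called 41 and 36 members lower, against 7.92% and 8.57% of those genes. Here and below, the shares over all genes tested were not matched for read level. The members had at least 414 reads in each library, and the genes tested in limma include some with few, such as PTPRC with 45 over 4 libraries. The median log2 fold change of the members was -0.33, beside -0.0022 over all genes tested, and the median member kept 79.7% of its siCt level. In bulk RNA, fewer cells in S phase and less of each transcript per cell cannot be told apart. Among all genes tested, 1735 were called higher and 1271 lower (57.7% higher), a split that turned to 1536 and 1745 (46.8% higher) when libraries were scaled by their total reads alone. Under that scaling the median of the members was -0.36.

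**Figure D1:**
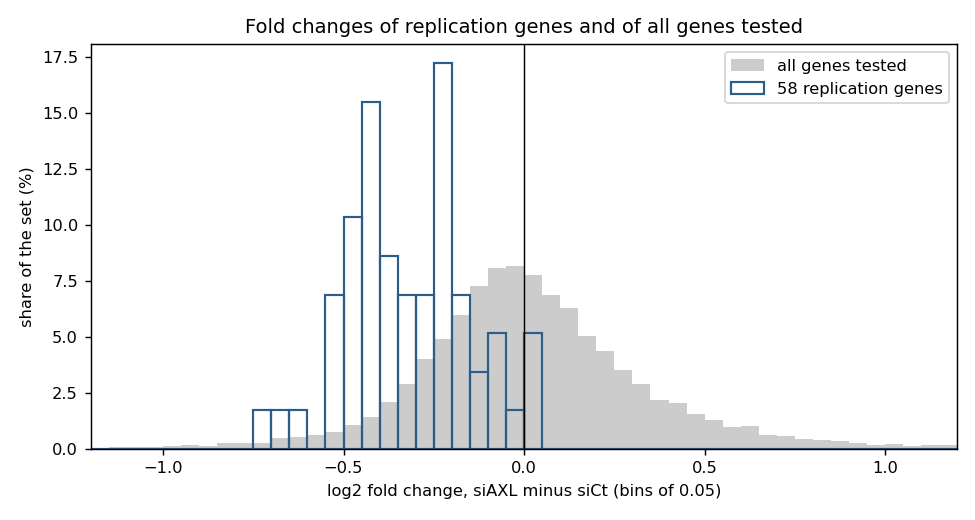
Share of all 16064 genes tested (grey) and of the 58 replication genes (blue outlines) in bins of 0.05 of the log2 fold change, siAXL minus siCt. The replication genes lie almost wholly left of 0, between -0.70 and 0.038, while the genes tested centre near 0. The plot leaves out 133 genes tested that lie beyond -1.2 or 1.2.

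The separation between the groups was seen in the single libraries too. For 54 of the 58 members each siAXL library was below each siCt library, which was the case for 30.5% of all genes tested. In none did both lie above, against 30.6% of all genes tested. The other 4 members, POLD4, POLE4, RFC1 and TOP2A, overlapped between the groups. The members were not equally low in the 2 siAXL libraries. In siAXL 1 the median member was 0.35 below the siCt mean on the log2 scale and in siAXL 2 it was 0.29 below, and siAXL 1 was the lower library in 45 of 58 members, against 57.2% of all genes tested. AXL itself was higher in siAXL 1 than in siAXL 2. Without regard to sign, siCt 1 and siCt 2 differed by a median of 0.045 over the members and siAXL 1 and siAXL 2 by 0.082, while over all genes tested the medians were 0.11 and 0.10. A fit with 1 library left out has only 1 library in a group and 1 degree of freedom for the spread of a gene. Its calls lean on variance that limma shares across genes, and are not comparable with the calls of the main fit. Without siAXL 1 the number called lower was 19, at 2.57% of all genes tested, and the median was -0.29. The 21 members that lost their call without siAXL 1 were ORC1, ORC3, MCM4, MCM5, MCM7, DBF4, CDC45, GINS1, GINS2, POLA2, PRIM2, POLD1, POLE2, POLE3, PCNA, RFC2, RFC3, RNASEH2A, TOPBP1, TIMELESS and CHAF1A. Without siAXL 2 the number was 29, at 4.02% of all genes tested, with a median of -0.35. Without siCt 1 it was 35 (10.8% of all genes tested) and without siCt 2 it was 34 (5.82%). With any 1 library left out, 18 members stayed called, against 1.87% of all genes tested, and MCM4, MCM7 and TIMELESS were called in none of the 4 cases.

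The members called lower under other settings were read against the genes called lower in the same setting. TMM scaling and a pseudocount of 8 each called 40 members, with 7.88% of all genes. Scaling by total reads called 43 members (10.9% of genes), a fit with GC and length trends taken out 43 (10.4%), library sizes without mitochondrial genes 42 (11.3%) and the filter of at least 1 read 19 (1.25%). The genes called higher in these settings made up 2.79% (at least 1 read), 9.39% (no mitochondrial genes), 9.56% (total reads), 9.8% (GC and length) and 11.5% (TMM), and no member was among them. Leaving out siCt 1, siCt 2, siAXL 1 and siAXL 2 gave 13.4%, 9.61%, 5.53% and 5.43% of genes called higher, again with no member.

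**Figure D2:**
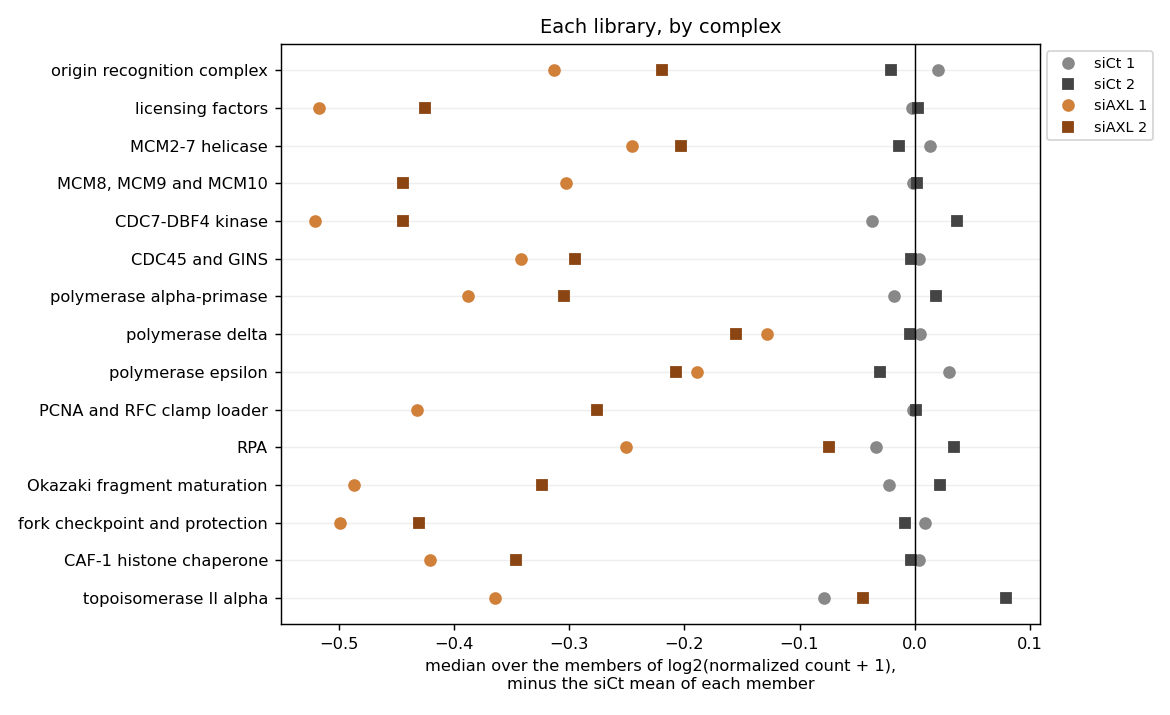
Median over the members of each complex of log2(normalized count + 1), minus the siCt mean of each member, in the 4 libraries (circles, first library; squares, second library). In 14 of the 15 groups both siAXL medians lie below both siCt medians, the exception being TOP2A, and siAXL 1 lies below siAXL 2 in 12 groups.

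The 3 licensing factors were all called lower, with a median log2 fold change of -0.47. CDC6 (ENSG00000094804), the ATPase that loads MCM rings together with ORC, had 4569 and 4587 normalized counts in siCt and 3198 and 3409 in siAXL. The siAXL libraries were well below the siCt libraries, and the log2 fold change was -0.47 (SE 0.0581, adjusted p = 0.00384 by limma). CDT1, the partner of CDC6 in loading, fell by 0.49 on the log2 scale. GMNN, the inhibitor of CDT1, fell by 0.44, so that the loader and its inhibitor were lower together.

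Of the 6 ORC subunits, ORC1, ORC3 and ORC6 were called lower, and the median of the 6 was -0.26. ORC6 (ENSG00000091651) had 1368 and 1156 normalized counts in siCt and 896 and 881 in siAXL. Its siCt libraries differed more than its siAXL libraries, and did not reach them (log2 fold change -0.50, SE 0.0927, adjusted p = 0.0137 by limma). ORC1, the subunit whose protein rises and falls through the cell cycle, fell by 0.42, and ORC3 by 0.28. ORC5 (-0.23), ORC2 (-0.15) and ORC4 (-0.062) did not pass the test.

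The subunits of the MCM2-7 ring, which are needed in equal numbers in the protein, had log2 fold changes from -0.42 to -0.071, and 5 of the 6 were called lower. The difference between subunits was not tested. MCM3 (ENSG00000112118) had 13893 and 13729 normalized counts in siCt and 10244 and 10376 in siAXL, a log2 fold change of -0.42 (SE 0.0515, adjusted p = 0.00376 by limma). MCM2 (ENSG00000073111), a common marker of cells with licensed origins, had 3494 and 3689 in siCt and 2537 and 2824 in siAXL, also -0.42 (SE 0.0709, adjusted p = 0.00997). MCM7 (-0.23), MCM5 (-0.21) and MCM4 (-0.20) were called lower with about the same size as each other. The calls of MCM5 (adjusted p = 0.0498) and MCM4 (0.0485) were close to the threshold, and DESeq2 did not call them (0.0735 and 0.0564). MCM6 was the subunit that was not called. With 2753 and 2670 normalized counts in siCt and 2548 and 2615 in siAXL, its libraries were separated by little, and it did not pass the test (log2 fold change -0.071, SE 0.0572, adjusted p = 0.434).

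MCM10 (ENSG00000065328), which binds the helicase as it is activated, had one of the largest falls of the set. It had 2282 and 2287 normalized counts in siCt and 1440 and 1497 in siAXL, or 64.3% of its level in siCt (log2 fold change -0.64, SE 0.0603, adjusted p = 0.00212 by limma). The spread within each group was a small part of this difference. MCM8 and MCM9, which form a separate helicase of recombination repair, had values of -0.37 (adjusted p = 0.0342) and -0.14 (0.323), and MCM8 was called lower.

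Both genes of the kinase that fires origins fell. CDC7 (ENSG00000097046), the catalytic subunit, had 1820 and 1821 normalized counts in siCt and 1277 and 1262 in siAXL, a log2 fold change of -0.52 (SE 0.061, adjusted p = 0.00339 by limma). DBF4, its activating subunit, fell by 0.45. The libraries of each group were close together for CDC7 and farther apart for DBF4.

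CDC45 and GINS join the MCM ring to make the active helicase. CDC45, GINS1 and GINS2 were called lower, and GINS3 (-0.29, adjusted p = 0.061) and GINS4 (-0.22, adjusted p = 0.0713) fell short of the threshold. GINS2 (-0.32, adjusted p = 0.0346) was not called by DESeq2 (0.0671), and with a library left out it was called only without siCt 1. GINS3 was called under scaling by total reads (adjusted p = 0.0462), and GINS4 under that scaling (0.042) and with either GC and length trends or mitochondrial reads taken out (0.0455 and 0.0367). GINS1 (ENSG00000101003) had 1639 and 1614 normalized counts in siCt and 1227 and 1298 in siAXL (log2 fold change -0.37, SE 0.0655, adjusted p = 0.0122 by limma). For all 5, each siAXL library was below each siCt library, with values from -0.37 to -0.22.

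**Figure D3:**
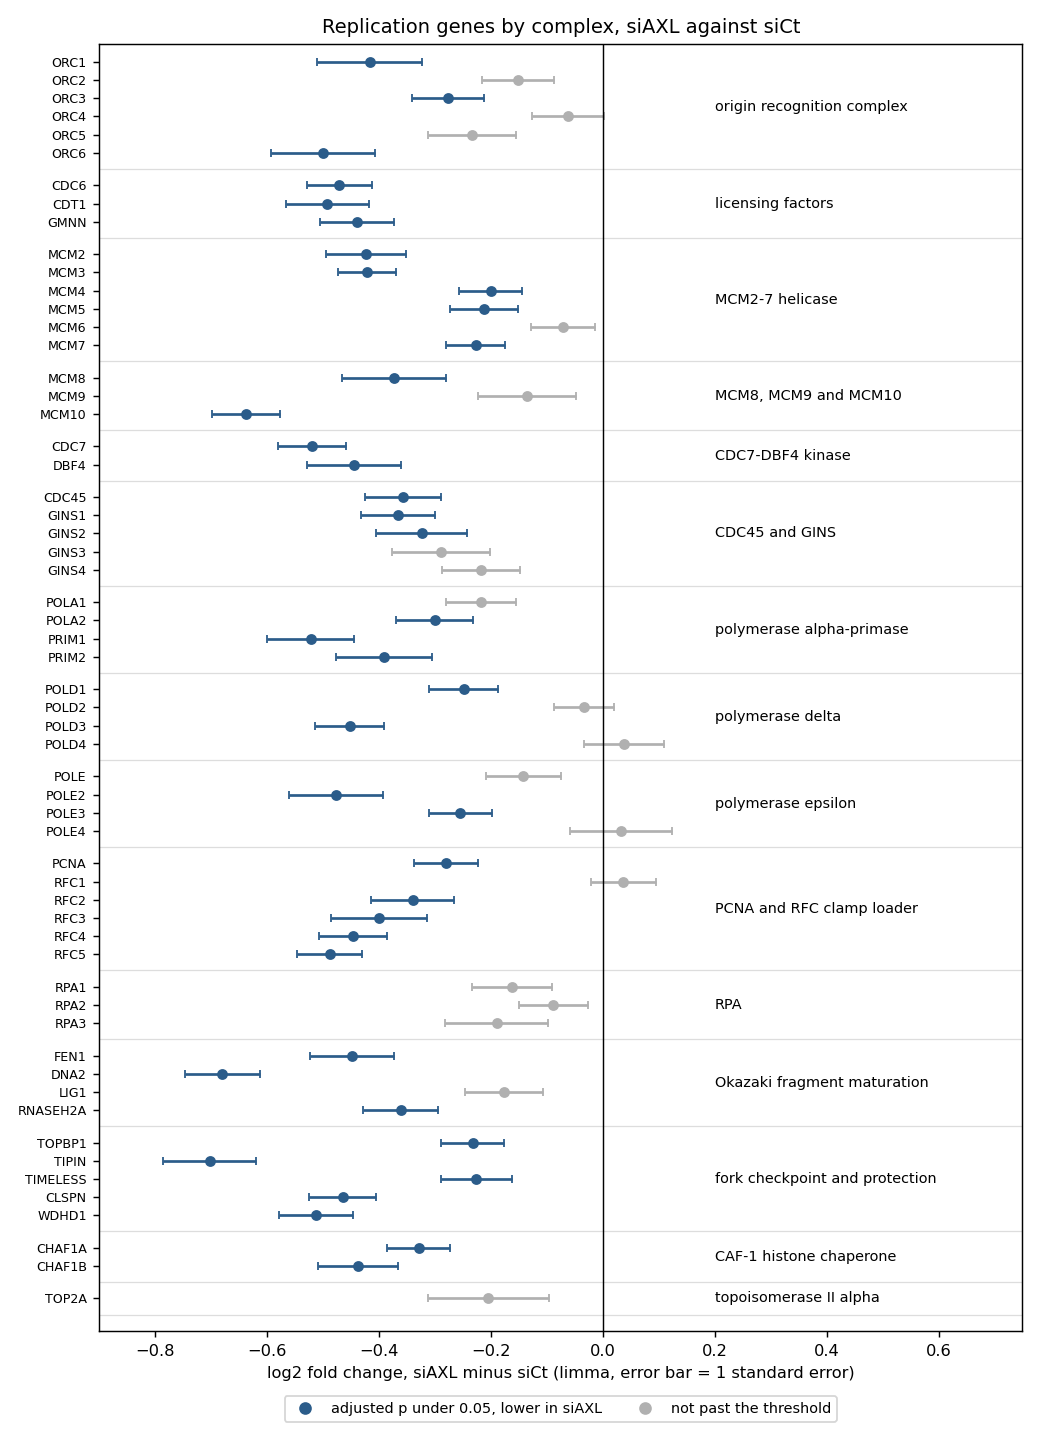
Log2 fold change, siAXL minus siCt, of the 58 members by complex, with 1 standard error from limma (2 libraries per group). Blue points were called lower at an adjusted p under 0.05 and grey points were not called. The licensing factors, the CDC7-DBF4 kinase, CAF-1 and the fork checkpoint genes are blue throughout, the 3 RPA genes and TOP2A are grey, and RFC1, POLD4 and POLE4 are the 3 points right of 0.

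Each of the 3 replicative polymerases had subunits that were called lower and subunits that were not. Polymerase alpha with primase starts each new strand. PRIM1 (ENSG00000198056), the catalytic primase subunit, had 762 and 793 normalized counts in siCt and 538 and 544 in siAXL, a log2 fold change of -0.52 (SE 0.0777, adjusted p = 0.00683 by limma). PRIM2 (-0.39) and POLA2 (-0.30) were also called lower. Part of PRIM2 lies in a duplicated segment, so its reads may be split with a near copy. POLA1, the catalytic polymerase subunit, had -0.22 and missed the threshold narrowly (adjusted p = 0.0521), and edgeR called it lower (0.0467).

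Polymerase delta extends the lagging strand and polymerase epsilon the leading strand, and each has 4 subunits, of which 2 were called lower. POLD3 (ENSG00000077514), an accessory subunit of polymerase delta, had 2333 and 2473 normalized counts in siCt and 1768 and 1742 in siAXL (log2 fold change -0.45, SE 0.0617, adjusted p = 0.00517 by limma). POLE2 (ENSG00000100479), the second subunit of polymerase epsilon, had 1142 and 1146 in siCt and 769 and 877 in siAXL (-0.48, SE 0.0844, adjusted p = 0.0118). Both genes had siAXL libraries clear of the siCt libraries. The catalytic subunits POLD1 (-0.25, adjusted p = 0.0342) and POLE (-0.14, adjusted p = 0.185) had smaller values, and only POLD1 was called. POLE3, a histone-fold subunit, fell by 0.25.

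The small subunits POLD4 and POLE4 stood slightly above 0 and were not called. POLD4 (ENSG00000175482) had 991 and 999 normalized counts in siCt and 1054 and 989 in siAXL, a log2 fold change of 0.038 (SE 0.0713, adjusted p = 0.758 by limma). POLE4 (ENSG00000115350) had 732 and 660 in siCt and 678 and 745 in siAXL (0.032, SE 0.0915, adjusted p = 0.841). In both, the libraries of the groups overlapped. POLD2, with -0.034 (adjusted p = 0.709), was also close to 0. The sign of POLD4 turned without siAXL 1 (-0.0077) and with the GC and length trend removed (-0.0025), and that of POLE4 without siCt 2 (-0.042) or siAXL 2 (-0.035).

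The clamp and its loader showed a similar contrast within 1 complex. PCNA (ENSG00000132646), the ring that holds polymerases on DNA and a common marker of proliferation, had 7229 and 7607 normalized counts in siCt and 5968 and 6244 in siAXL. It was lower in both siAXL libraries, with a log2 fold change of -0.28 (SE 0.0573, adjusted p = 0.0186 by limma), and lost its call without siAXL 1. The 4 small subunits of replication factor C, which RFC1 joins to form the loader and which other loaders share, all fell, from RFC5 (-0.49) through RFC4 (-0.45) and RFC3 (-0.40) to RFC2 (-0.34). RFC5 (ENSG00000111445) had 2562 and 2528 normalized counts in siCt and 1786 and 1841 in siAXL (SE 0.0583, adjusted p = 0.00354). RFC1 (ENSG00000035928), the large subunit specific to this loader, had 4417 and 4549 in siCt and 4460 and 4737 in siAXL. Its groups overlapped, and its log2 fold change was 0.036 (SE 0.058, adjusted p = 0.709), turning to -0.0072 without siAXL 2.

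The 3 subunits of RPA, which coats single-stranded DNA at forks and also in repair, were not called. RPA1 (ENSG00000132383) had 7666 and 8034 normalized counts in siCt and 6598 and 7453 in siAXL, a log2 fold change of -0.16 (SE 0.0714, adjusted p = 0.159 by limma). RPA3 had -0.19 and RPA2 -0.088. In all 3 the siAXL libraries were below the siCt libraries, with siAXL 1 farther below than siAXL 2.

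Of the 4 genes of enzymes that process Okazaki fragments, the short pieces of the lagging strand, 3 were called lower. DNA2 (ENSG00000138346), a nuclease and helicase that trims long flaps and resects DNA ends, had 1486 and 1569 normalized counts in siCt and 953 and 952 in siAXL. The siAXL libraries were nearly equal and kept 62.4% of the siCt level (log2 fold change -0.68, SE 0.0674, adjusted p = 0.00232 by limma). FEN1, the flap endonuclease, fell by 0.45, and RNASEH2A, the catalytic subunit of the RNase that removes RNA primers and single ribonucleotides, by 0.36. LIG1, the ligase that seals the fragments, had -0.18 and was not called (adjusted p = 0.123 by limma). It was called with GC and length trends taken out (adjusted p = 0.0343), and its log2 fold change was -0.25 without siCt 2.

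The genes of the proteins that guard the fork were called lower in all 5 cases, with a median of -0.46. TIPIN (ENSG00000075131), which forms a fork protection complex with TIMELESS, had the lowest log2 fold change of the 58. Its 654 and 671 normalized counts in siCt stood against 402 and 411 in siAXL, or 61.4% of the siCt level (log2 fold change -0.70, SE 0.0825, adjusted p = 0.0034 by limma). TIMELESS, its partner, had -0.23, close to the threshold (adjusted p = 0.0487, and 0.0725 in DESeq2). WDHD1, which ties polymerase alpha to the helicase, fell by 0.51, CLSPN, the adaptor that activates the checkpoint kinase CHK1, by 0.46, and TOPBP1, the activator of the kinase ATR, by 0.23.

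CAF-1 deposits new histones behind the fork, and both its genes were lower. CHAF1B (ENSG00000159259) had 1381 and 1349 normalized counts in siCt and 969 and 1047 in siAXL (log2 fold change -0.44, SE 0.0716, adjusted p = 0.00925 by limma), and CHAF1A fell by 0.33. TOP2A (ENSG00000131747), the topoisomerase that untangles sister chromatids and peaks in G2 and mitosis, was the most abundant member in reads. It had 21540 and 24030 normalized counts in siCt and 17671 and 22059 in siAXL, so that siAXL 2 lay above siCt 1. It was not called (log2 fold change -0.20, SE 0.108, adjusted p = 0.233 by limma). Its value depended on the library left out. It was called lower without siAXL 2 (-0.36, adjusted p = 0.0422) and without siCt 1 (-0.28, adjusted p = 0.0323), and stood at -0.045 without siAXL 1.

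In size, 7 members fell by 0.5 or more on the log2 scale, against 4.36% of all genes tested. They were TIPIN, DNA2, MCM10, PRIM1, CDC7, WDHD1 and ORC6, spread over 6 of the 15 groups. At a stricter adjusted p under 0.01, 17 members were called lower, against 1.53% of all genes tested. Under all 14 other settings of scaling, pseudocount, filter, test or libraries, 16 members kept their call, against 1.96% of the 12725 genes with an adjusted p in all of them. These were CDC6, CDT1, GMNN, MCM2, MCM3, MCM10, CDC7, PRIM1, POLD3, RFC4, RFC5, DNA2, TIPIN, CLSPN, WDHD1 and CHAF1B.

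Levels of different genes were compared per 1000 bases of the principal transcript in GENCODE release 29. On this scale the MCM2-7 genes of siCt cells were far from equal, from 4305 normalized counts per 1000 bases in MCM3 and 4138 in MCM7 to 1592 in MCM4, 992 in MCM2, 862 in MCM5 and 726 in MCM6. MCM6, with the lowest level of the 6, was the one that was not called. PCNA, which acts as a ring of identical subunits, had the highest level of the set, 5459 in siCt and 4493 in siAXL. The geminin gene stood at 2486 in siCt, above its target CDT1 at 328. MCM9 was the lowest, at 94.4 in siCt and 85.9 in siAXL.

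Ratios of levels within a complex shifted between the groups. Per 1000 bases, MCM3 stood to MCM6 at 5.88 and 5.99 in siCt and at 4.68 and 4.62 in siAXL. The ratio of RFC5 to RFC1 was 1.70 and 1.63 in siCt and 1.18 and 1.14 in siAXL. POLD3 stood to POLD2 at 0.358 and 0.387, and then at 0.283 and 0.274. POLE2 stood to POLE at 1.06 and 1.16, and then at 0.794 and 0.967. These 4 pairs were chosen after their values were seen, so the ratios are a description. In each pair both siAXL ratios were below both siCt ratios, and with 2 libraries against 2 an exact permutation test cannot give a two-sided p under 0.333.

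**Figure D4:**
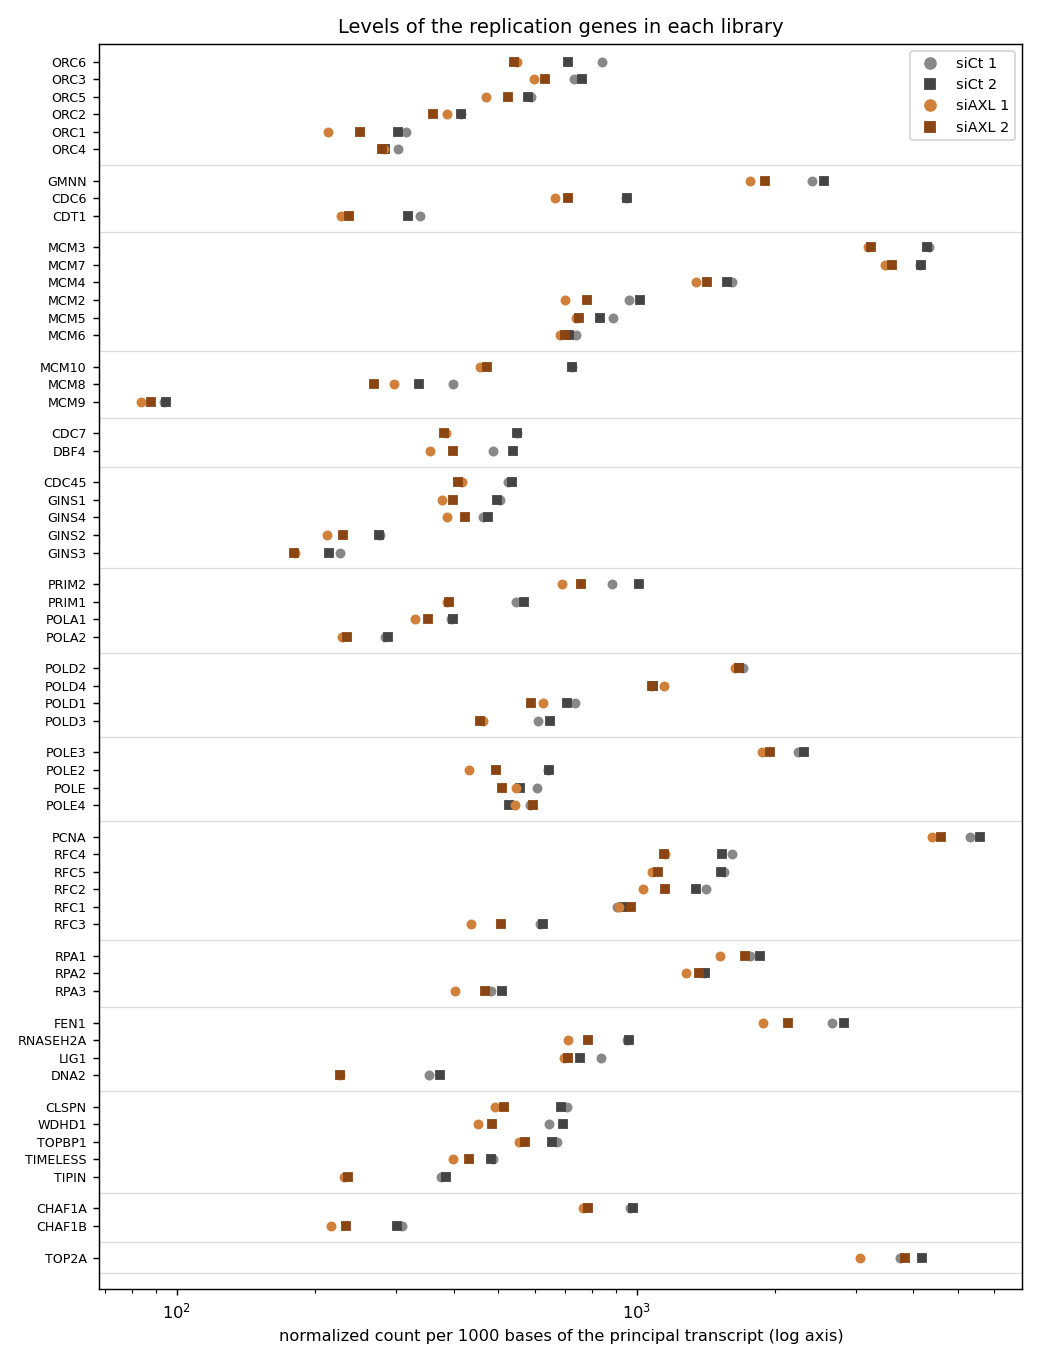
Normalized count per 1000 bases of the principal transcript (log axis) of each member in the 4 libraries, grouped by complex in the order of the text and sorted by the siCt mean. PCNA, MCM3, MCM7 and TOP2A lie to the right and MCM9 to the far left, and the siAXL points (orange and brown) lie left of the siCt points (greys) in 54 of 58 genes.

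The promoters of the members were searched for E2F-type words. The members were chosen by function, and many are known to be under E2F control. A raised share of these words therefore follows in part from the choice. RefSeq windows were found for 51 of the 58 members, 65 windows in all. At least 1 of the 4 E2F-type words printed in capitals above was present in 24 of the 51 genes (47.1%), against 3.99% of all 27305 genes with a window. By window, 36.9% held the word, against 3.31% of all 35116 windows, with a median GC content of 64.3% and 58.7%. The part of base composition in these shares was not tested. The 4 words were searched as exact letters, and near forms such as TTTGGCGG were not. The split therefore cannot separate members with an E2F site from members without one. The fold changes were much alike with and without the word. The 24 members with it had a median log2 fold change of -0.35 and 18 were called lower, and the 27 without it had -0.34 and 18 were called lower.

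The printed windows show both sides of this. TIPIN holds a single stretch that reads as the word on both strands, CDC6 holds 1 word and MCM3 holds 2. MCM6 holds 2 such stretches, and its transcript did not pass the test. MCM10 fell by 0.64 on the log2 scale with none of the exact words in its window. That window does hold the near form TTTGGCGG, left in lower case because near forms were not searched. The RFC1 window, also without an exact word, holds GTTGGCGC, which is 1 letter from TTTGGCGC. Whether MCM10 or RFC1 lacks an E2F site was therefore not tested. GINS3, LIG1, POLA1, POLE and POLE4 also carried the word without a call. A match is a description of the letters, and the binding of E2F factors was not measured in these samples.

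**Figure D5:**
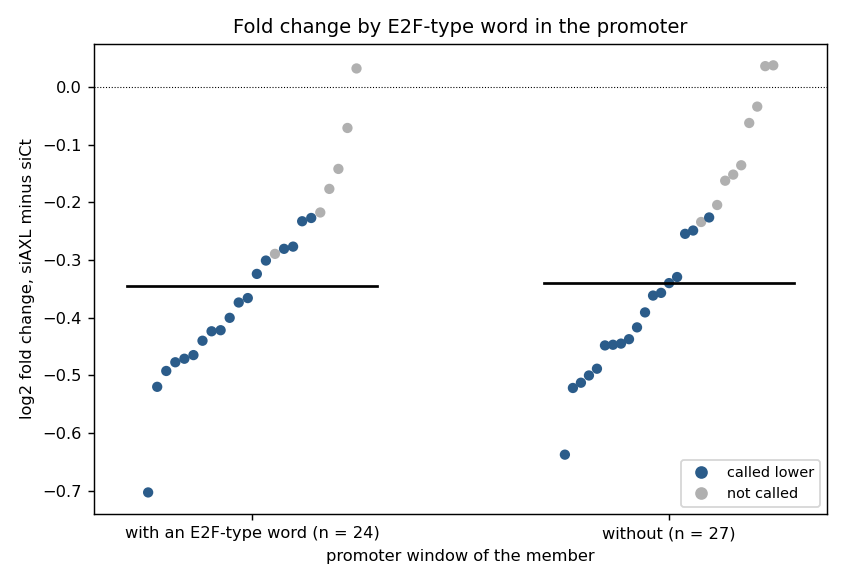
Log2 fold change, siAXL minus siCt, of the 51 members with a promoter window, split by whether the window holds an E2F-type word (24 with, 27 without). Only the exact words were searched, so members without them may hold near forms. Each point is a gene, blue if called lower, and the black lines are the medians, -0.35 with and -0.34 without, which lie at nearly the same height.

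Other genes of DNA replication, a list of 32 that are not among the 58, were examined beside them. This list was also chosen with earlier results of these data known. Of the 32, 28 were below 0, 15 were called lower and 0 higher, with a median log2 fold change of -0.23. Over all genes tested, 50.3% were below 0, 7.91% called lower and 10.8% higher. DTL (ENSG00000143476), which directs the destruction of CDT1 in S phase, had 3754 and 4005 normalized counts in siCt and 2643 and 2782 in siAXL (log2 fold change -0.52, SE 0.0623, adjusted p = 0.00368 by limma). DSCC1, a subunit of the alternative clamp loader that acts in sister chromatid cohesion, fell by 0.52 (adjusted p = 0.00933). KAT7, a histone acetyltransferase that aids licensing, fell by 0.34 (adjusted p = 0.00997). The 4 genes above 0 were ASF1A, TOP2B, TOP1 and CHTF8, from 0.063 to 0.13, and none of them was called. No gene of the list was higher at an unadjusted p under 0.05, and edgeR and DESeq2 called 15 and 16 lower and 0 higher, against 7.92% and 8.57% lower and 11.5% higher in each over all genes.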

How the data were processed

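RNA sequencing of 4 libraries was analysed, siCt and siAXL with 2 each. The submitters' processing notes name CASAVA 1.8, TopHat2 2.0.10, HTSeq 0.5.3, DESeq2 1.4.5 and GRCh37. The strand setting is not given in the sources used here. The authors deposited a signal of normalized counts, the reads on a gene after division by a DESeq2 size factor. Their columns of a pooled mean, fold changes, standard errors, Wald statistics and p-values were not used.

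Reads were recovered by dividing each column by its smallest value above 0, and 100% of values were whole within 0.01. Genes passing edgeR's filterByExpr, 16064 in all, were tested with limma (3.58.1, trend) in R 4.3.3 on log2(normalized count + 1), which understates changes of low genes, and with Benjamini-Hochberg adjustment over all of them. A gene was called at an adjusted p under 0.05. edgeR (4.0.16) and DESeq2 (1.42.0) on recovered reads were alternatives, calling 3122 and 2598 genes. Scripts were tested on simulated data.

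Of symbols with several rows, 1 among the members, the row with the highest mean was kept. Members and lists were chosen with earlier results of these data known. Values in each library are given for the member with the smallest adjusted p in each group, members above 0, the 5 largest falls, PCNA, MCM2 and TOP2A. MCM6 was added after its values were seen. For other replication genes, the 3 smallest adjusted p-values per direction are named, and the 4 genes above 0 were added likewise. GENCODE release 29 and the RefSeq windows are on GRCh38, so they gave only transcript lengths, GC content, exon overlaps and the printed windows.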

Additional observations from a re-analysis of the deposited data

How the results depend on the processing

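The number of members called lower was 40, and lay between 19 (without siAXL 1) and 35 (without siCt 1) with a library left out. It was 19 with all 27108 genes of at least 1 read in any library tested, and 17 at an adjusted p under 0.01. No setting called a member higher. The median of the members, -0.33, was -0.36 under scaling by library size alone and ran from -0.35 to -0.29 with a library left out. The number of genes called over the whole table, 3006, was 1097 with the wider filter and 859 at an adjusted p under 0.01, and ran from 1301 to 3900 with a library left out. AXL stayed between -2.07 and -1.79. Under the other scalings, pseudocounts and tests the counts of calls moved by less than 1.5 times. The causes of these shifts were not tested.

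The 3 members above 0 had no stable direction. With a library left out, POLD4 ran from -0.0077 to 0.083, POLE4 from -0.042 to 0.11 and RFC1 from -0.0072 to 0.080. POLE4 was -0.035 without siAXL 2, and POLD4 was -0.0025 once GC and length trends were removed.

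The labels number the libraries 1 and 2 in both groups but do not say that the numbers mark a shared culture or day. The differences between the libraries of siCt and of siAXL correlated across 13086 genes (r = 0.546). With the replicate block, 7310 genes were called, 22.2% of those tested lower and 23.3% higher, and 50 members were called lower and 0 higher. The 10 members that gained a call were ORC2, ORC5, GINS3, GINS4, POLA1, POLE, RPA1, RPA3, LIG1 and TOP2A. The block leaves 1 degree of freedom for the spread of a gene, as does each fit with a library left out. The calls of all these fits lean on variance that limma shares across genes. They are not comparable with the calls of the main fit.

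The removal of the GC and length trend and the library sizes without mitochondrial genes were chosen after seeing the data. They called 43 and 42 members lower. Read sharing limits single genes: 8 members share exon bases with a gene that had more reads, at most 5.72% of their exon length. A further overlap, of 2.17% (RPA3) to 35.1% (POLA2), was with genes for which no count was used here, in 7 members: RPA3, RFC5, GINS3, PRIM1, MCM2, RNASEH2A and POLA2.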

Other observations

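Across the 58 genes the correlation of the log2 siCt level with the log2 fold change was 0.12 (Pearson's r), a description over genes that share the same 4 libraries. The members with the most reads, TOP2A, MCM3, MCM7, RPA1 and PCNA, had values from -0.42 to -0.16, and those of the fewest, GINS3, MCM9, TIPIN and PRIM1, from -0.70 to -0.14.

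The CCAAT box, the letters CCAAT on either strand, was present in the windows of 31 of 51 members (60.8%), against 39.7% of all genes with a window. The members with it had a median log2 fold change of -0.32 and those without it -0.40. The words TTTGAA and TTTAAA, found in cell cycle genes of G2 and mitosis, were present in 5 of 51 members (9.80%), against 27.9% of all genes with a window. These words are mostly A and T, and the windows of members had a median GC content of 64.3%, against 58.7% of all windows. The part of base composition in this share was not tested.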
